A study of Mus musculus with 8 samples.

Results

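Imprinted genes are expressed mainly from the copy inherited from 1 parent, and many of them are known for promoting or restraining growth in the fetus and newborn. A group of them is highly expressed around birth and declines together as organ growth slows, in the heart as in other tissues, which is why it is described as a perinatal network. The 10 genes described here were Mest, Igf2, H19, Dlk1, Meg3, Peg3, Plagl1, Grb10, Cdkn1c and Ndn, 10 of the 43346 genes in the count table. They were chosen by name from the imprinted growth genes after the differences in counts between LLC1 and PBS mice had been seen, so their differences are given as a description, with no p-value, and the calls shown for them are not read as tests. The values were read counts from the ventricles of 8 male C57BL/6 mice. Mice of the LLC1 group (n = 4) received 1000000 LLC1 cells, a mouse Lewis lung carcinoma line, at the age of 7 weeks, and control mice of the same strain, sex and age (n = 4) received PBS vehicle. Tissue was taken 14 days later, each library came from 1 mouse, and mice are named by group and by the replicate code in their label. The question was how far genes of this network differed in the hearts of adult tumor-bearing mice.

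Library totals lay between 12480706 and 19747596 counts, so that 1 CPM, scaled to the library total with its TMM factor, stood for 11.7 to 19.9 counts. Cardiomyocyte markers (Myh6, Tnnt2, Tnni3, Actc1, Ryr2 and Pln) summed to between 76834 and 91766 CPM in the 8 mice, as a ventricular label requires, and epithelial or carcinoma markers to between 0.992 and 4.81 CPM. Of the whole table, 16111 genes had enough counts to be tested between the groups, and 1406 of them (8.73%) passed a Benjamini-Hochberg false discovery rate (FDR) of 0.05 in edgeR's quasi-likelihood test. Of these, 743 (4.61%) were lower and 663 (4.12%) higher in LLC1 mice. One library stood apart from the rest. The counts of PBS mouse 1-1 differed from those of the other 7 mice with a chi-square per degree of freedom of 57.8 to 114.6, against 4.52 to 20.4 for the 21 other pairs. Malat1, an abundant nuclear RNA named after its values were seen, was at 11793 CPM in that mouse and 1720 to 2858 CPM in the others. Without it the log2 fold change of Mest was -1.59. Nothing in the labels says what the first number of a replicate code stands for, and the spread between mice given here may hold technical variation.

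Mest carries a microRNA gene in an intron and H19 carries one in an exon, and the mature sequences of both are shown because the counts around them bear on what can be read from these libraries. They are given 5′ to 3′ as in RefSeq for GRCm38.p6, with the seed, bases 2 to 8, in capitals.
miR-335-5p (in Mest): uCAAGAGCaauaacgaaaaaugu
miR-335-3p (in Mest): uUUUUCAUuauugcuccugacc
miR-675-5p (in H19): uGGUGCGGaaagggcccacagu
miR-675-3p (in H19): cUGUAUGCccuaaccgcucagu
The mature strands of miR-335 lie at chr6:30741314-30741336 and chr6:30741354-30741375 on the plus strand, and those of miR-675 at chr7:142577112-142577133 and chr7:142577078-142577099 on the minus strand. Each of these seeds occurred in 1 of the 1738 mature mouse microRNAs of the table. The gene row of Mir335 had 0 counts in all 8 libraries, and Mir675 had 32, 20, 18 and 4 counts in the LLC1 mice and 22, 17, 18 and 17 in the PBS mice, in the order 1-2, 1-3, 1-5 and 2-2 for LLC1 and 1-1, 1-3, 2-1 and 2-5 for PBS that is kept throughout. These are reads of the H19 exon, which holds all 84 bases of the Mir675 row, and not a measure of the mature microRNA. They came to 7.36% ± 1.74 of the H19 counts in LLC1 mice and 9.34% ± 0.716 in PBS mice (SD, n = 4).

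Imprinting rests on methylation of CpG sites, often near promoters, and the Mest promoter is shown because Mest is the gene on which the comparison turns. The 250 bases before a RefSeq start of Mest, at chr6:30737800-30738049 on the plus strand of GRCm38.p6, are printed with each CpG in capitals.
Mest: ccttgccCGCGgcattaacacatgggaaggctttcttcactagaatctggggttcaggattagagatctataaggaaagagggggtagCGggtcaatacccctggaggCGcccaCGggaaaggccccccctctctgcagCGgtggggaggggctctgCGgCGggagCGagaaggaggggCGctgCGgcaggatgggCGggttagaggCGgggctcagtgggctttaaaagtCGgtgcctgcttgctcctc
This window held 14 CpG sites, more than 70.6% of the 32851 such windows in the table, whose median was 6. The window before an upstream Mest start, at chr6:30733256-30733505, held 7 and exceeded 53.7% of windows. Windows were found for 8 of the 10 genes, 15 in all. They ran from 0 CpG sites at one Meg3 start to 40 at one Grb10 start, which was more than 98.7% of all windows held. The letters GGGGCCCC, a palindrome resembling the site bound by the zinc-finger factor encoded by Plagl1, were found in 1 of the 15 windows, that of Peg3, and in 0.889% of all windows. Methylation was not measured here.

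Mest was much lower in the tumor-bearing mice than in the PBS mice. Mest (ENSMUSG00000051855, mm10 chr6:30723547-30748455) is expressed from the paternal copy and encodes a membrane enzyme of the alpha/beta hydrolase fold, known as a marker of tissue growth. It had 80, 77, 128 and 138 counts in the LLC1 libraries and 142, 255, 213 and 422 counts in the PBS libraries. After TMM normalization these were 5.29, 5.07, 7.00 and 6.94 CPM in LLC1 mice and 12.2, 17.9, 12.5 and 24.9 CPM in PBS mice. The groups did not overlap, and the highest LLC1 value lay below the lowest PBS value. The means were 6.08 ± 1.04 and 16.9 ± 5.96 CPM (SD, n = 4), which gave a log2 fold change of -1.47 (SE 0.22), or 0.361 of the PBS level. The PBS mice also spread more, with a coefficient of variation of 35.3% against 17.1%. The groups stayed apart within each first number of the replicate code, since the single LLC1 mouse of code 2 had 6.94 CPM and the PBS mice of that code 12.5 and 24.9.

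In PBS mice Mest was of middling abundance. Per kilobase of gene length it stood at 4.29 ± 1.51 CPM in PBS mice, above 48.5% of the genes tested, and at 1.54 ± 0.264 CPM per kilobase in LLC1 mice. The 3′ end of Mest overlaps the exons of Copg2, a coat protein gene on the other strand, over 912 bases or 23.1% of the Mest exons, and reads there cannot be assigned without strand. Copg2 had 47.0 CPM in LLC1 and 49.8 CPM in PBS mice, with a log2 fold change of -0.08 (edgeR FDR 0.454).

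**Figure D1:**
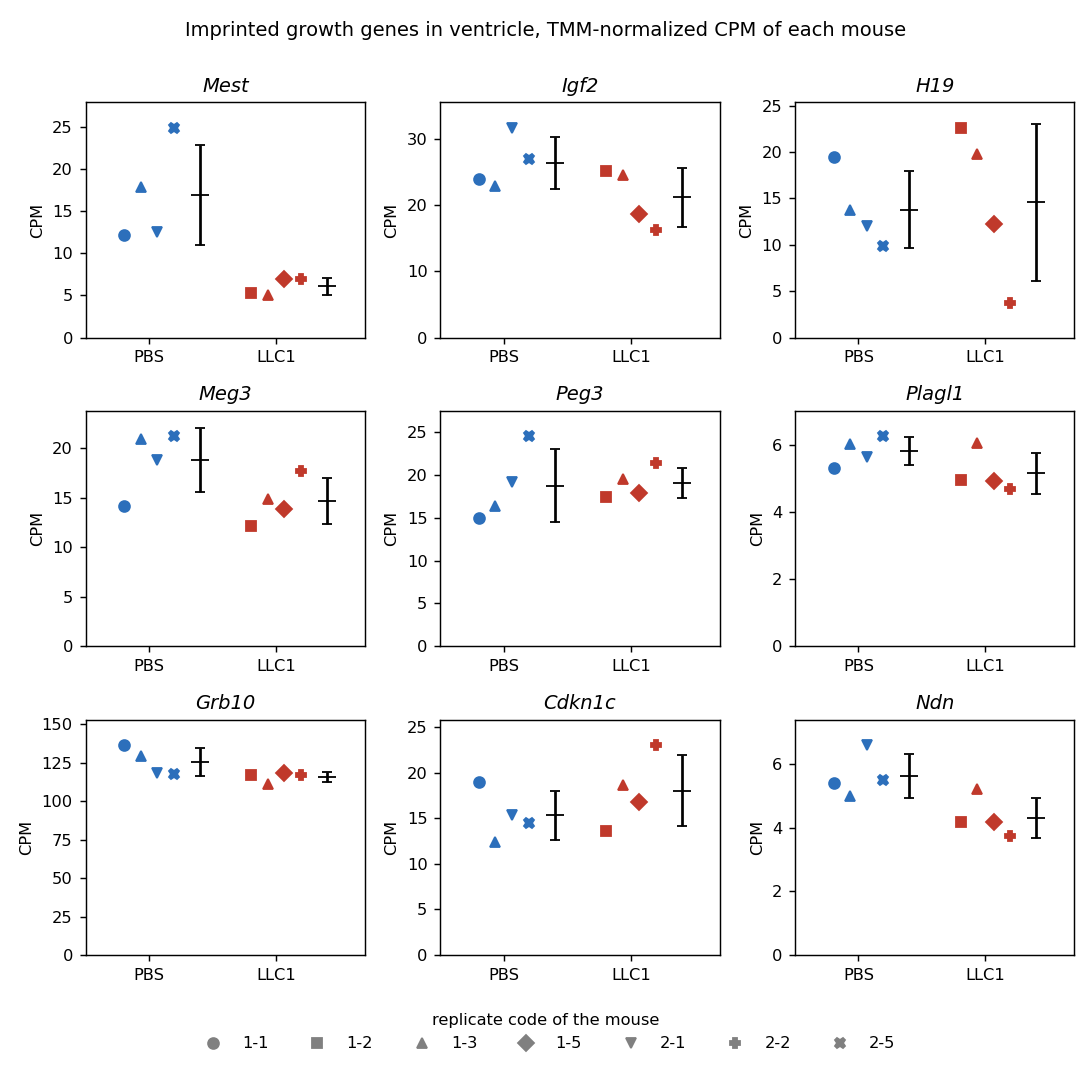
TMM-normalized CPM of 9 imprinted growth genes in each ventricle library, by group; each marker is 1 mouse, with its shape giving the replicate code, and the bars give the mean and SD of 4 mice. Mest is the 1 gene whose LLC1 values (5.07 to 7.00 CPM) all lie below its PBS values (12.2 to 24.9 CPM), and in the other 8 panels the groups overlap.

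Igf2 and H19 share enhancers and a control region on chromosome 7 and are expressed from opposite parental copies. Igf2 (ENSMUSG00000048583, mm10 chr7:142650766-142666816) encodes the fetal insulin-like growth factor. It had 382, 373, 343 and 323 counts in LLC1 mice and 280, 327, 540 and 457 counts in PBS mice. These made 25.3, 24.6, 18.8 and 16.3 CPM against 24.0, 22.9, 31.8 and 27.0 CPM. The groups overlapped, since LLC1 mice 1-2 and 1-3 were at the level of PBS mice 1-1 and 1-3. The means were 21.2 ± 4.41 and 26.4 ± 3.96 CPM (SD, n = 4), and the log2 fold change was -0.33 (SE 0.15).

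H19 (ENSMUSG00000000031, mm10 chr7:142575529-142578143) is a long noncoding RNA and had the largest coefficient of variation of the 9 tested genes in LLC1 mice. It had 342, 300, 223 and 75 counts in LLC1 mice and 227, 196, 204 and 167 counts in PBS mice, or 22.6, 19.8, 12.2 and 3.77 CPM against 19.5, 13.7, 12.0 and 9.86 CPM. The LLC1 group held both the highest and the lowest of the 8 values. The means were 14.6 ± 8.44 and 13.8 ± 4.12 CPM (SD, n = 4), with a coefficient of variation of 57.9% in LLC1 mice and 29.9% in PBS mice. The log2 fold change was 0.08 (SE 0.40), and it ranged from -0.22 without LLC1 mouse 1-2 to 0.41 without LLC1 mouse 2-2, with 0.28 without PBS mouse 1-1, so it had no stable direction.

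The ratio of H19 to Igf2 counts was 0.895, 0.804, 0.650 and 0.232 in LLC1 mice and 0.811, 0.599, 0.378 and 0.365 in PBS mice. The 3 mice whose replicate code begins with 2 had the 3 lowest ratios and also the 3 lowest H19 levels, in both groups, a pattern picked out after the values were seen. With the first number of the code as a covariate the log2 fold change of H19 was -0.34. The third neighbour, the insulin gene Ins2, had 0 CPM in both groups.

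**Figure D2:**
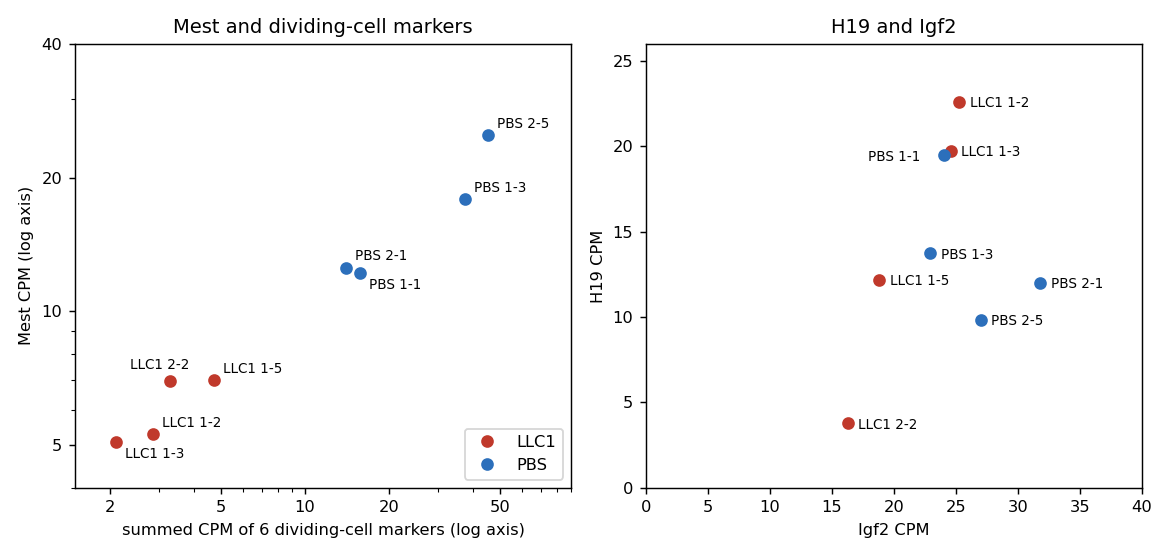
Left, Mest CPM against the summed CPM of 6 dividing-cell markers in each mouse, both on log axes; right, H19 CPM against Igf2 CPM on linear axes, with each point 1 labelled mouse. The 4 LLC1 mice lie at 2.11 to 4.70 marker CPM and the 4 PBS mice at 14.1 to 45.2, and LLC1 mouse 2-2 has the lowest H19 (3.77 CPM) and Igf2 (16.3 CPM).

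The imprinted cluster on chromosome 12 holds Dlk1, expressed from the paternal copy, and Meg3, expressed from the maternal copy together with the noncoding RNAs Rian and Mirg. Dlk1 (ENSMUSG00000040856, mm10 chr12:109452823-109463336), a transmembrane protein of the Notch-ligand type, was not detectable at this depth. It had 1 count in LLC1 mouse 1-3, 1 count in PBS mouse 2-1 and 0 counts in the other 6 libraries. A count of 0 allows a level of up to 0.151 to 0.257 CPM, depending on the library, and no fold change is given. Rtl1 (0.452 and 0.687 CPM in LLC1 and PBS mice) and Dio3 (0.0593 and 0.0322 CPM), also expressed from the paternal copy, had too few counts to be tested.

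Meg3 (ENSMUSG00000021268, mm10 chr12:109541001-109571726), a nuclear long noncoding RNA, had 184, 226, 253 and 351 counts in LLC1 mice and 165, 299, 320 and 359 counts in PBS mice. These made 12.2, 14.9, 13.8 and 17.7 CPM against 14.2, 20.96, 18.8 and 21.2 CPM. PBS mouse 1-1 lay within the LLC1 range and the other 3 PBS mice above it. The means were 14.6 ± 2.30 and 18.8 ± 3.26 CPM (SD, n = 4), with a log2 fold change of -0.36 (SE 0.14), which was -0.47 without PBS mouse 1-1.

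Rian, the host of a large array of small nucleolar RNAs downstream of Meg3, fell in LLC1 mice. It had 6.02, 7.05, 6.51 and 7.45 CPM in LLC1 mice and 10.5, 11.0, 10.2 and 12.3 CPM in PBS mice, with no overlap. The means were 6.76 ± 0.623 and 11.0 ± 0.956 CPM (SD, n = 4), which gave a log2 fold change of -0.70 (SE 0.11, edgeR FDR 0.00389), and Rian kept FDR under 0.05 in each of the 8 other fits and with each mouse left out. The ratio of Meg3 to Rian counts was 2.02, 2.11, 2.13 and 2.37 in LLC1 mice against 1.35, 1.90, 1.85 and 1.72 in PBS mice, chosen for display after the values were seen. Mirg, farther downstream, was at 0.692 and 0.656 CPM, with a log2 fold change of 0.10 (FDR 0.861).

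Among the nuclear regulators, Peg3 and Plagl1 encode zinc-finger proteins expressed from the paternal copy. Peg3 (ENSMUSG00000002265, mm10 chr7:6703892-6730421) had 264, 297, 326 and 424 counts in LLC1 mice and 174, 233, 326 and 415 counts in PBS mice. In CPM these were 17.5, 19.6, 17.8 and 21.3 against 14.9, 16.3, 19.2 and 24.5. The LLC1 values lay inside the PBS range, with means of 19.05 ± 1.78 and 18.7 ± 4.23 CPM (SD, n = 4). The log2 fold change was 0.02 (SE 0.14) and took either sign, from -0.07 without PBS mouse 1-1 to 0.17 without PBS mouse 2-5, and -0.04 when scaled to total counts. Its maternally expressed neighbour Zim1 was at 1.68 ± 0.608 and 2.72 ± 0.253 CPM, with a log2 fold change of -0.67 that did not pass the test (FDR 0.0974), and Usp29 was at or near 0.

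Plagl1 (ENSMUSG00000019817, mm10 chr10:13060504-13131694), known as a regulator of other genes of the network, had 75, 92, 90 and 93 counts in LLC1 mice and 62, 86, 96 and 106 counts in PBS mice. Its levels were 4.96, 6.06, 4.92 and 4.68 CPM against 5.32, 6.03, 5.65 and 6.26 CPM, and LLC1 mouse 1-3 lay among the PBS mice. The log2 fold change was -0.18 (SE 0.13). Ndn (ENSMUSG00000033585, mm10 chr7:62348277-62349928), which encodes the growth suppressor necdin, had 63, 79, 76 and 74 counts in LLC1 mice and 63, 71, 112 and 93 counts in PBS mice. These were 4.17, 5.20, 4.16 and 3.72 CPM against 5.41, 4.98, 6.59 and 5.49 CPM, with 3 of the LLC1 mice below the lowest PBS mouse. The means of Ndn were 4.31 ± 0.628 and 5.62 ± 0.688 CPM (SD, n = 4), and the log2 fold change was -0.39 (SE 0.15). Of its neighbours, the 2 gene rows named Snrpn had log2 fold changes of 0.10 and 0.04 (the second with LLC1 and PBS means of 66.3 and 64.6 CPM, or 67.2 CPM in PBS without mouse 1-1), Magel2 was at 0 CPM in all mice, and Mkrn3 (0.455 and 0.399 CPM) and Peg12 (0.503 and 0.602 CPM) were too low to be tested.

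Cdkn1c and Grb10 encode inhibitors of growth, and the groups overlapped for both. Cdkn1c (ENSMUSG00000037664, mm10 chr7:143458350-143461050) encodes the cyclin-dependent kinase inhibitor p57 and is expressed from the maternal copy. It had 206, 284, 307 and 458 counts in LLC1 mice and 221, 177, 261 and 246 counts in PBS mice, or 13.6, 18.7, 16.8 and 23.0 CPM against 18.96, 12.4, 15.4 and 14.5 CPM. LLC1 mouse 2-2 was above every PBS mouse and the other LLC1 mice lay within the PBS range. The means were 18.0 ± 3.94 and 15.3 ± 2.73 CPM (SD, n = 4), with a log2 fold change of 0.25 (SE 0.16) that was 0.10 without LLC1 mouse 2-2. In its cluster, Kcnq1ot1, the noncoding RNA of the paternal copy, was at 15.9 ± 3.17 and 20.2 ± 10.7 CPM (log2 fold change -0.32, FDR 0.501). PBS mouse 1-1 alone had 36.0 CPM, and without it the PBS mean was 14.9 ± 1.66 CPM (SD, n = 3), below the LLC1 mean. Kcnq1 was at 51.8 and 44.4 CPM (log2 fold change 0.22, FDR 0.107), and Phlda2 was at 0 CPM in all mice.

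Grb10 (ENSMUSG00000020176, mm10 chr11:11930508-12038683), an adaptor that binds the insulin and IGF1 receptors and restrains their signal, was the most abundant of the genes, with a coefficient of variation of 2.84% in LLC1 and 7.22% in PBS mice. It had 1768, 1687, 2164 and 2332 counts in LLC1 mice and 1593, 1846, 2011 and 2000 counts in PBS mice, or 117, 111, 118 and 117 CPM against 137, 129, 118 and 118 CPM. The means were 116 ± 3.30 and 126 ± 9.07 CPM (SD, n = 4), with a log2 fold change of -0.11 (SE 0.06) that was -0.07 without PBS mouse 1-1. Its neighbours Ddc and Cobl had log2 fold changes of -0.16 and 0.10, and neither passed the test (FDR 0.534 and 0.622).

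**Figure D3:**
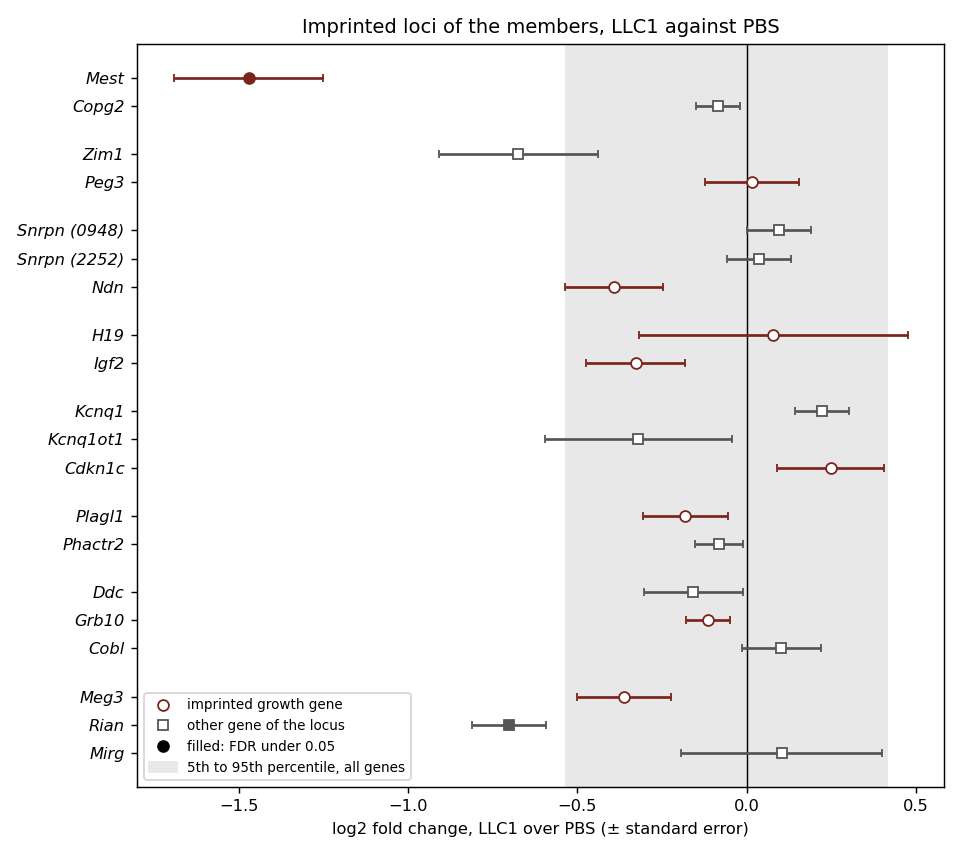
Log2 fold change (LLC1 over PBS) with its standard error for the 9 tested imprinted growth genes and the tested genes around them, grouped by locus, with filled markers at FDR under 0.05 and the grey band spanning the 5th to 95th percentile of all genes tested (-0.53 to 0.41). Mest at -1.47 and Rian at -0.70 are the filled points; Copg2 beside Mest is at -0.08, and beside Rian Meg3 is at -0.36 (SE 0.14) and the barely expressed Mirg at 0.10 (SE 0.30).

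Of the 10 genes, 9 had enough counts to be tested and 1, Mest, had FDR under 0.05, beside 8.73% of all genes. Mest was also the only one of the 9 without overlap between the groups, which was seen for 17.2% of all genes tested, 8.27% lower and 8.89% higher in LLC1 mice. An unadjusted p under 0.05 was reached by 25.5% of all genes. Since the genes were chosen with this contrast known, nothing is read from these counts. The log2 fold changes were negative for 6 of the 9 genes and positive for 3, with a median of -0.18, beside a median of -0.01 over all genes tested. Summed over the 10 genes, the level was 219 ± 5.53 CPM in LLC1 mice and 247 ± 5.46 CPM in PBS mice (SD, n = 4), and Grb10 made up 53.0% and 50.9% of it. Without Grb10 the sums ran from 95.5 to 113.8 CPM in LLC1 mice and from 114.5 to 133.7 CPM in PBS mice. Their means were 103 and 121 CPM, of which Mest alone made 6.08 CPM in LLC1 and 16.9 CPM in PBS mice. A sum without both genes was not taken, so the separation of the sums is not read as a fall shared by the genes.

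Compared per kilobase of gene length in PBS mice, the level was 13.8 ± 0.998 CPM for Grb10, 7.93 ± 1.41 for Cdkn1c, 5.81 ± 1.74 for H19, 4.62 ± 0.692 for Igf2 and 4.29 ± 1.51 for Mest (SD, n = 4). Lower down came Ndn with 3.40 ± 0.416, Peg3 with 1.41 ± 0.318, Meg3 with 1.04 ± 0.180 and Plagl1 with 0.744 ± 0.0529 CPM per kilobase. Grb10 stood apart from Cdkn1c, Ndn from Peg3 and Plagl1 from Dlk1, while each other pair of neighbours in this order overlapped between mice. Grb10 exceeded 78.2% of all genes tested on this scale, and Peg3 exceeded 22.6%. In LLC1 mice Mest, at 1.54 CPM per kilobase, was below Ndn at 2.61 ± 0.380.

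Markers of dividing cells moved with Mest. The summed level of Mki67, Top2a, Ccnb1, Cdk1, Aurkb and Bub1 was 2.84, 2.11, 4.70 and 3.27 CPM in LLC1 mice and 15.7, 37.4, 14.1 and 45.2 CPM in PBS mice. Of the 6 markers, 3 had enough counts to be tested, and all 3 fell, with log2 fold changes of -2.96 for Mki67, -3.33 for Top2a and -2.69 for Cdk1 (edgeR FDR 0.00177, 0.00139 and 0.00313). Within the LLC1 group the order of the mice was identical for Mest and for the marker sum, 1-5, 2-2, 1-2 and 1-3 from high to low. Mest was nearly tied in LLC1 mice 1-5 and 2-2 (7.00 and 6.94 CPM) and in 1-2 and 1-3 (5.29 and 5.07 CPM). The order within each of these pairs is therefore not read as a result. Within the PBS group mice 2-5 and 1-3 came first and second for both, and mice 1-1 and 2-1 changed places. The part of dividing cells in the Mest difference was not tested, and in bulk tissue fewer cells of a type and less RNA per cell cannot be told apart.

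The sums for other cell types were closer between the groups than that of dividing cells, though several did not overlap. The marker calls below stand beside 4.61% of all genes called lower and 4.12% called higher in LLC1 mice. Fibroblast markers (Pdgfra, Tcf21, Col1a1, Col1a2, Lum and Dpt) summed to between 374 and 447 CPM in LLC1 mice and between 449 and 649 CPM in PBS mice, and 3 of 6 fell. Endothelial markers came to 863 ± 55.1 and 1082 ± 123 CPM, with 1 of 6 lower, and mural markers to 1286 and 1437 CPM, with none called. The mural sums did not overlap, at 1271 to 1310 CPM in LLC1 mice and 1368 to 1562 CPM in PBS mice. Macrophage markers summed to 165 ± 17.2 and 201 ± 32.4 CPM, with 1 of 5 lower, and cardiomyocyte markers to 87653 ± 2846 and 77658 ± 922 CPM, with 1 of 6 higher, Myh6. The cardiomyocyte sums did not overlap, at 85317 to 91766 CPM in LLC1 mice and 76834 to 78606 CPM in PBS mice. Epicardial markers ranged from 11.8 to 68.0 CPM and from 19.7 to 53.2 CPM, and erythroid markers from 903 to 3255 CPM and from 981 to 1959 CPM in LLC1 and PBS mice, with none called. In the atrial list, with none called, Nppa, which the ventricle also expresses, gave 197 and 165 CPM, while Myl4 (1.60 and 2.41), Myl7 (1.09 and 0.943) and Sln (0.0291 and 0.123 CPM) were far lower. In the adipocyte list Cidea, the 1 of 6 markers tested, gave 31.0 and 26.3 CPM and was not called, while Adipoq, Plin1, Lep and Cfd were under 1 CPM on average and Ucp1 was at 0. In the skeletal muscle list Ckm (2606 and 2125 CPM, called higher) and Acta1 (311 and 259 CPM), which cardiomyocytes also express, made nearly all of the sum, while Myh1 and Tnnt3 were under 1 CPM on average and Myh4 was at 0. The sums of this list did not overlap, at 2801 to 3022 CPM in LLC1 mice and 2243 to 2569 CPM in PBS mice. The part of these cells in the values of the imprinted genes was not tested.

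The genes whose levels followed Mest most closely were ranked by the correlation of log2 CPM over the 8 mice after the mean of each group was subtracted. The first 5 were Clec9a (r = 0.985), Tpx2 (0.975), Lpin3 (0.975), Pcyt2 (0.963) and Prss53 (0.962), given without a test. Tpx2 encodes a spindle assembly factor and fell in LLC1 mice (log2 fold change -1.93, FDR 0.0218), whereas Pcyt2, an enzyme of phosphatidylethanolamine synthesis, rose (0.27, FDR 0.0268). Clec9a (-0.47, FDR 0.157), Lpin3 (0.02, FDR 0.969) and Prss53 (0.31, FDR 0.224) did not pass the test. Of the 3 tested dividing-cell markers, Mki67 (0.930) was 31st, Top2a (0.851) 197th and Cdk1 (0.793) 448th of the genes tested. Of the imprinted growth genes, Meg3 (0.655) and Peg3 (0.647) came nearest, and H19 was farthest (-0.547). The points of each correlation share the 8 libraries.

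Beyond the 10 genes, 67 other genes known to be imprinted in at least some mouse tissue were listed, of which 65 were in the table as 66 gene rows. Of the 46 rows tested, 1 passed the test (2.17%, beside 8.73% of all genes), and that was Rian. The log2 fold changes were negative for 24 and positive for 22, with a median of -0.04 and a range of -0.93 to 0.53. The lowest FDR among the other 45 was 0.0612, for Gatm, an enzyme of creatine synthesis (2.15 ± 0.273 against 3.60 ± 1.22 CPM), which was chosen after its values were seen. Whether these genes keep their imprint in the ventricle cannot be read from total counts.

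The IGF pathway, in which Igf2 is a ligand and Grb10 an inhibitor, was followed over 20 further genes, of which 16 were tested and 3 passed (18.8%, beside 8.73% of all genes). Igf1, the postnatal ligand, fell from 15.5, 15.8, 19.1 and 16.2 CPM in PBS mice to 9.86, 10.1, 10.9 and 9.91 CPM in LLC1 mice, with no overlap (log2 fold change -0.71, SE 0.09, FDR 0.00149). The binding protein Igfbp7 fell from 115 ± 8.84 to 87.9 ± 8.16 CPM (SD, n = 4; -0.39, SE 0.08, FDR 0.0136). The binding protein Igfbp3 rose from 14.9 ± 2.25 to 21.2 ± 3.44 CPM (SD, n = 4; 0.51, SE 0.13, FDR 0.0319), with overlapping groups. The receptors did not pass: Igf1r had a log2 fold change of 0.19 (FDR 0.351), Insr 0.19 (FDR 0.126) and Igf2r, which clears Igf2 from the cell surface and is itself imprinted, -0.08 (FDR 0.446). The median over the 16 genes was 0.08. The call of Igfbp3 was lost in 6 of the 8 fits that left out 1 mouse, and that of Igfbp7 without LLC1 mouse 1-3 (FDR 0.0512).

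Growth genes of fetal and newborn tissue or heart that are not imprinted were listed for comparison, 24 in all, of which 18 were tested and 6 passed (33.3%, beside 8.73% of all genes), 5 lower and 1 higher, beside 4.61% and 4.12% of all genes. Mycn, a transcription factor of proliferating embryonic cells, fell from 5.92, 5.26, 3.59 and 2.77 CPM in PBS mice to 0.93, 1.19, 1.31 and 1.46 CPM in LLC1 mice (log2 fold change -1.80, SE 0.26, FDR 0.00273). The G1 cyclin Ccnd1 fell from 89.5 ± 18.0 to 42.8 ± 3.45 CPM (SD, n = 4; -1.06, FDR 0.000781), while its relative Ccnd2 was at 94.3 and 96.9 CPM (FDR 0.767). The matrix collagens Col3a1 (-0.98, FDR 0.00683) and Col1a1 (-0.60, FDR 0.0456) and the transcription factor Sox4 (-0.91, FDR 0.0193) also fell. Myh7, the fetal form of cardiac myosin, rose from 4757 ± 596 to 6460 ± 357 CPM (SD, n = 4; 0.44, FDR 0.0137). The median of the list was -0.25.

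These genes moved beside the marker levels given above, and Col1a1 is itself in the fibroblast list. The call of Col1a1 was lost without any 1 of 7 mice (all but PBS 1-1), in limma-voom and with scaling to total counts, and that of Sox4 without LLC1 mouse 1-2, 1-3 or 1-5. The call of Myh7 was lost when libraries were scaled to total counts only (FDR 0.0704). Like the 10 genes, the lists were drawn up with results of these mice known, and the difference between lists was not tested.

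**Figure D4:**
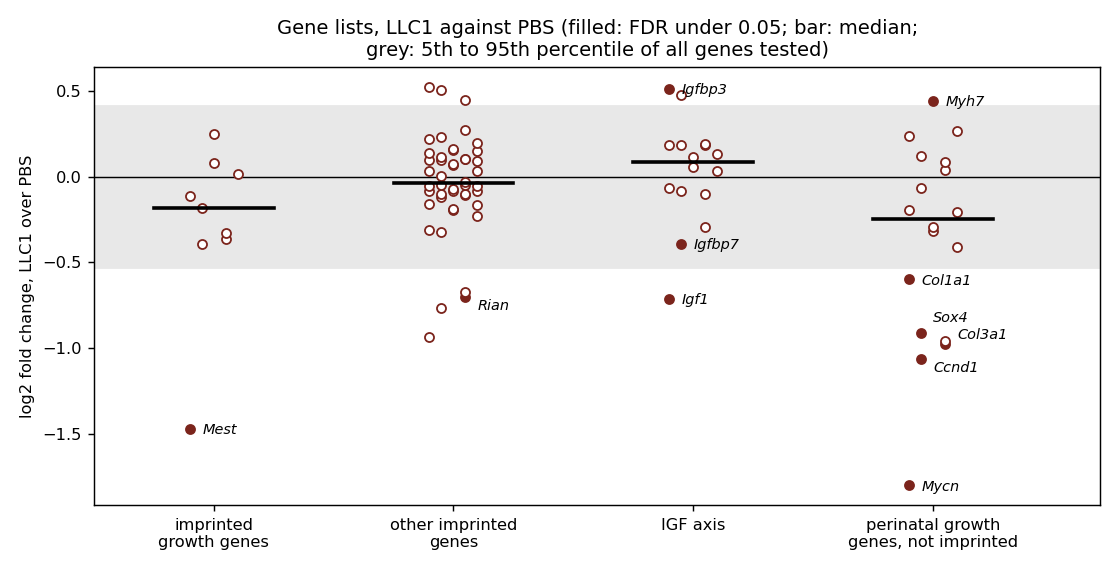
Log2 fold change (LLC1 over PBS) of each tested gene in 4 lists, with filled points at FDR under 0.05, bars at the median of each list and a grey band from the 5th to the 95th percentile of all genes tested. The medians are -0.18 for the imprinted growth genes, -0.04 for other imprinted genes, 0.08 for the IGF axis and -0.25 for the perinatal growth genes, and Mest lies far below the rest of its list.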

How the data were processed

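The authors sequenced ventricular mRNA of 4 LLC1 and 4 PBS male mice from TruSeq v2 libraries. The deposited values are raw read counts per gene and mouse, not normalized. The submitters' processing notes name mm10, CASAVA, STAR and featureCounts without versions. The annotation release and the strand setting are not given in the sources used here, so reads in exons shared by opposite genes (Mest and Copg2; Meg3 and Gm26906, 6.79% of its exons) may be split or dropped. Over 30.7% of the Cdkn1c exons, reads of Gm44732 on the other strand, which has no row in the count table, may be counted with Cdkn1c. Levels per kilobase used the deposited gene length in bases, which for Ndn (1652) is below that in GENCODE M21 (3694). Of the Igf2 exons, 62.8% lie in a readthrough gene with no row in the count table.

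Counts were compared with edgeR 4.0.16 in R 4.3.3 (filterByExpr, TMM factors, quasi-likelihood F-test, Benjamini-Hochberg FDR under 0.05 over 16111 genes). A standard error was the log2 fold change over the square root of F. The only comparison was LLC1 against PBS, unpaired, by the treatment label. CPM are TMM-normalized, with n of 4 mice per group. Floors of 3 counts cover counting error only. Only the main edgeR fit was tested on simulated counts, in which no library stood apart, and the other steps were not. Alternatives were DESeq2 1.42.0, limma-voom (limma 3.58.1), 3 other scalings, 2 other filters, a covariate for the code's first number, and each mouse left out. Overlaps and similar transcripts (BLAST 2.17.0, at least 97% identity over 150 bases) used GENCODE M21, in which Meg3 shares 842 bases with Gm27000. Python 3.11.15, pandas 2.3.3 and matplotlib 3.10.9 made the other tables and figures.

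The genes, lists, tests and alternatives were chosen with earlier results of these data known. The genes named are the 10 imprinted genes, the genes of the 3 other lists with FDR under 0.05, the partner genes at the imprinted loci, the 5 genes most like Mest, and cell type markers. Others were named after their values were seen.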

Additional observations from a re-analysis of the deposited data

Results flagged for a closer look

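In 29 genes, the 9 tested imprinted growth genes and part of the other named ones, the 4 mice of each group were searched for a value far from the rest (a gap to the nearest mouse above Dixon's critical value, which chance alone gives in about 1 in 20 groups), and 3 of the 58 sets of values held one. Copg2, the neighbour of Mest, had 45.1 CPM in PBS mouse 1-1 and 50.8 to 51.7 CPM in the other PBS mice. Kcnq1ot1 had 36.0 CPM in PBS mouse 1-1, whose library also stood apart as a whole, and 13.1 to 16.4 CPM in the others. Kcnq1 had 44.2 CPM in LLC1 mouse 2-2 and 53.7 to 55.2 CPM in the other LLC1 mice. No such value was found in the 9 imprinted growth genes that were tested. Malat1 and Irs2 were not among the 29 genes, and both were highest in PBS mouse 1-1. Irs2 had 28.7 CPM there and 10.9, 8.59 and 9.03 CPM in PBS mice 1-3, 2-1 and 2-5.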

How the results depend on the processing

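The count of imprinted growth genes with FDR under 0.05 was 1, Mest, in all 8 other fits, and 1 to 2 with a mouse left out, Meg3 being added without PBS mouse 1-1, the library that stood apart. Without that mouse 1949 of all 16319 genes tested were called, against 1406 of 16111 in the main fit. The imprinted growth genes were chosen with the contrast known, so their calls are a description and are not read as tests. The log2 fold change of Mest lay between -1.53 and -1.40 in the other fits and between -1.60 (without PBS mouse 2-1) and -1.22 (without PBS mouse 2-5) with a mouse left out. The number of called genes in the whole table was 1018 to 1757 in the other fits and 542 (without PBS mouse 1-3) to 1949 (without PBS mouse 1-1) with a mouse left out, and it was 751, 634, 712 and 832 without LLC1 mouse 1-2, 1-3, 1-5 and 2-2. Scaled to total counts only, 225 genes were higher and 793 lower, against 663 and 743, and the median of all genes was -0.06. The difference in the summed level of the 10 genes was -27.95 CPM, moved to -36.56 CPM with total counts only, and ran from -30.66 to -26.21 CPM with a mouse left out.

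Of the other imprinted genes, DESeq2 called 3 (Gatm, Gnas and Rian), the fit to every gene counted at least 1 time called 2 (Gatm and Rian), and the replicate-code covariate gave 2 (Gnas and Rian). With a mouse left out the count was 1 to 2, the added gene being Zim1, Kcnq1, Gatm, Slc22a18 or Pon2 without LLC1 1-5, LLC1 2-2, PBS 1-1, PBS 2-1 or PBS 2-5. The IGF axis had 3 calls in each other fit and 1 to 4 with a mouse left out, with Igf1 alone called without LLC1 mouse 1-3 and Irs2 added without PBS mouse 1-1. The perinatal list had 4 to 6 and 4 to 7, with E2f1 added without PBS mouse 1-1 and Ezh2 without PBS mouse 2-1. The causes were not tested, except that a fit without 1 mouse holds fewer samples. No paired analysis was possible because the groups share 1 replicate code, carried by different animals. Depth limited Dlk1 most, and Ndn (63 to 112 counts a library) and Plagl1 (62 to 106) had the lowest counts of the genes tested among the 10.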
